A study of Mus musculus with 6 samples.

Results

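Neutrophils were 949 of the 46891 filtered cells (2.02%) in single-cell RNA libraries of the immune cells of mouse breast cancer tumours. They were selected on their own counts of unique molecular identifiers (UMIs, tags that each stand for a captured mRNA molecule). A cell needed 20 or more UMIs of S100a8 and S100a9 together, 2 or more of Csf3r, Cxcr2, G0s2 and Retnlg together, no more than 5 of C1qa, C1qb and C1qc, and none of Cd3e or Cd79a. A line of breast cancer brain metastasis, not named in the labels, was injected into the brain or into the mammary fat pad, and the study compared the immune cells of the tumours at both sites. All 6 libraries came from female C57BL/6J mice aged 10 to 12 weeks: 3 from brain tumours, called BrM 1, BrM 2 and BrM 3, and 3 from mammary fat pad tumours, called MFP 1, MFP 2 and MFP 3. Live CD45-positive cells (DAPI-negative, RedDot-1-positive) were sorted after enzymatic dissociation, so that every group carries a tumour and neither blood nor tumour-free tissue stands beside them. The labels do not say whether each library is a separate animal.

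Neutrophils are short-lived phagocytes that leave the bone marrow with preformed granules, whose proteins are made in a fixed order as the cells mature. In blood they keep transcripts of gelatinase granules and of homing receptors such as Cxcr2. In tumours they are known to lose these and to express chemokines, Cd274 and angiogenic factors such as Vegfa. They rely largely on glycolysis, and low oxygen stabilises hypoxia-inducible factor in them.

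Neutrophils were found in 3 of the 6 libraries. BrM 2 held 148 of 7685 filtered cells (1.93%, exact 95% binomial interval 1.63 to 2.26%), BrM 3 held 145 of 8185 (1.77%, 1.5 to 2.08%) and MFP 3 held 656 of 6623 (9.905%, 9.2 to 10.65%). BrM 1, MFP 1 and MFP 2 held 0 of 7930, 0 of 7982 and 0 of 8486 cells, which allows shares of up to 0.0378%, 0.0376% and 0.03535%, and no cell of these libraries reached 20 UMIs of S100a8 and S100a9. The same 3 libraries held 51, 53 and 24 macrophages (20 or more C1q UMIs) against 2543, 2232 and 2295 in BrM 2, BrM 3 and MFP 3, and more T cells. They carry the same labels of tissue and sort as the other libraries of their site. With neutrophils in 1 MFP library only, site and library cannot be told apart, and all values are given per library with no test. Intervals cover counting error only.

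The neutrophils held few UMIs. Their median depth was 1562, 1560 and 3038 UMIs in BrM 2, BrM 3 and MFP 3, against 6996, 5850 and 9058 in the T cells of the same libraries. Summed, they held 293646, 248711 and 2229900 UMIs. Levels are given as CPM, the UMIs of a gene per 1000000 UMIs of all neutrophils of a library, and 3 UMIs correspond to 10.2, 12.1 and 1.345 CPM. Values are listed in the order BrM 2, BrM 3 and MFP 3 throughout. Pairs of libraries shared 8 to 31 cell barcodes and no neutrophil barcode, and a doublet caller set to mark 7% of all cells marked 2, 3 and 18 neutrophils.

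Of 196, 194 and 860 cells with 20 or more S100a8 and S100a9 UMIs, 23, 31 and 144 had too few UMIs of the other rule genes, 17, 11 and 41 too many of C1q, and 8, 7 and 19 had Cd3e or Cd79a. The neutrophils just inside the threshold, with 20 to 29 of these UMIs, numbered 21, 20 and 48, and the cells just outside, with 10 to 19, numbered 25, 24 and 79. Cells of both bands met every other part of the rule. The levels of Csf3r, Cxcr2, G0s2, Retnlg and C1qa on the 2 sides are therefore partly set by the selection. Csf3r, the receptor for granulocyte colony-stimulating factor, stood at 600.3, 889 and 940 CPM inside and at 1086, 836.5 and 712 CPM outside. The chemokine Cxcl2 stood at 13110, 28800 and 27470 CPM inside and at 23340, 21230 and 32360 CPM outside. Of 9 genes followed, these along with Il1b and C1qa lay within 2-fold on the 2 sides in each library. Cxcr2, G0s2, Retnlg, the monocyte gene Ly6c2 and Hilpda lay within 2-fold in MFP 3 and further apart in at least 1 BrM library. In BrM 2, G0s2 stood at 934 CPM inside and 2063 CPM outside, Retnlg at 167 and 0 CPM, and Hilpda at 167 and 21.7 CPM, on 21 and 25 cells. In BrM 3, Cxcr2 stood at 681 and 260.2 CPM and G0s2 at 2311 and 1097 CPM.

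The genes of the rule gave the following levels, as a description of what was selected. S100a8 and S100a9, the subunits of calprotectin, stood at 28800, 24140 and 22790 CPM and at 48910, 39170 and 31770 CPM. Csf3r stood at 1042, 1359 and 960.1 CPM and Cxcr2, the chemokine receptor that releases neutrophils from the marrow, at 831, 728 and 449 CPM. G0s2, an inhibitor of fat breakdown, stood at 1618, 2103 and 2448 CPM and Retnlg, a resistin-like secreted protein, at 1846, 2103 and 776 CPM. In T cells of the same libraries S100a8 stood at 7.56, 4.12 and 19 CPM. As S100a8 chose the neutrophils, and the T cells were drawn by UMIs of marker genes too, nothing is read from this contrast.

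Neutrophil genes that the rule did not use were also high. The decoy receptor Il1r2 stood at 1495, 1492 and 1309 CPM in neutrophils and at 14.1, 22.2 and 18.1 CPM in T cells. Hdc, which makes histamine, stood at 1577, 1560 and 1692 CPM in neutrophils and at 17.3, 19.2 and 24 CPM in monocytes. Acod1, which makes itaconate, stood at 2656, 3639 and 3090 CPM against 48.9, 55.8 and 21.8 CPM in macrophages. After each cell was thinned to 1000 UMIs, 70.3%, 66.2% and 65.8% of neutrophils had a UMI of Hdc, against 0.184%, 0.3685% and 0.407% of T cells. Ly6g, the antigen most used to sort mouse neutrophils, was scarce at 54.5, 32.2 and 10.3 CPM, and 5 of 148, 3 of 145 and 15 of 656 neutrophils had a UMI of it. The label neutrophil thus rests on genes beside those of the rule, such as Il1r2, Hdc and Acod1, while Ly6g was found in few cells.

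**Figure D1:**
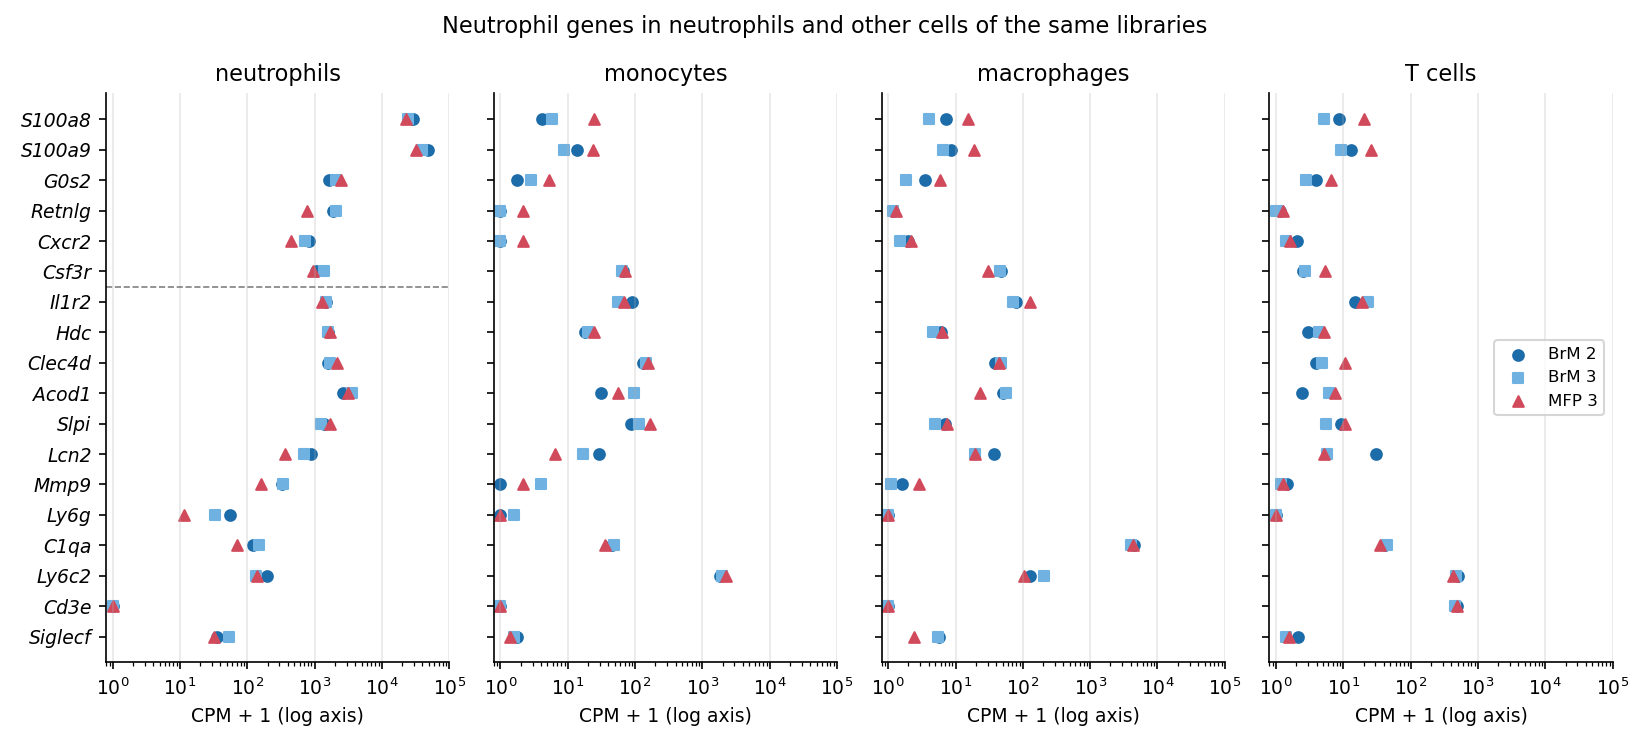
Levels of neutrophil genes and of markers of other cells in neutrophils, monocytes, macrophages and T cells of the 3 libraries that held neutrophils (CPM + 1 on a log axis, 1 point per library). The genes above the dashed line chose the neutrophils, and Il1r2, Hdc and Acod1, which it did not use, also stood at 1309 CPM or more in the neutrophils of each library.

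Markers of granulocytes of other kinds and of lymphocytes were low. The 9 eosinophil markers summed to 40.9, 60.3 and 50.7 CPM, with Epx, Ear1, Il5ra and Alox15 at 0, and Siglecf, which tumour neutrophils are also known to express, at 34.05, 52.3 and 31.4 CPM. The 7 basophil and mast cell markers summed to 3.405, 8.04 and 5.38 CPM, with Mcpt8, Cpa3 and Fcer1a at 0. The 8 B cell markers summed to 23.8, 56.3 and 34.5 CPM (6, 5 and 4 of them at 0) and the 8 T cell markers to 91.95, 185 and 70.4 CPM (2, 2 and 1 at 0, Cd3e by the rule).

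Markers of other myeloid cells were present at a higher sum. The 12 macrophage markers summed to 2445, 1576 and 1096 CPM (1, 1 and 0 at 0), of which Apoe, a lipoprotein of macrophages, gave 1488, 748 and 404 CPM, and the 10 monocyte markers summed to 1400, 1709 and 949 CPM (0, 1 and 0 at 0). The 10 dendritic cell markers summed to 3773, 1238 and 2401 CPM (2, 4 and 1 at 0), of which Cd74, the class II invariant chain, gave 1737, 519 and 1087 CPM. The 7 plasmacytoid dendritic cell markers summed to 412, 217 and 213 CPM, most of it the interferon-induced Bst2, at 375, 205 and 189 CPM, with Siglech at 0, 0 and 0.897 CPM. The 8 epithelial and tumour cell markers summed to 1049, 784 and 425 CPM, most of it Lcn2, a granule protein that neutrophils also make, at 875, 696 and 361.5 CPM, with Epcam at 85.1, 24.1 and 5.83 CPM and Krt8 at 40.9, 8.04 and 13 CPM. C1qa stood at 123, 149 and 69.5 CPM in neutrophils and at 4454, 4076 and 4363 CPM in macrophages. Both levels are partly set by the selection, which capped the C1q UMIs of neutrophils and required C1q UMIs in macrophages. Nothing is read from this contrast. The macrophage, monocyte, plasmacytoid and epithelial sums were lowest in MFP 3, whose neutrophils held the most UMIs per cell, and the part of these transcripts in the site differences was not tested.

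Azurophil granule genes, made by early marrow precursors, were near 0: Mpo stood at 0, 4.02 and 0 CPM, and Elane, Ctsg, Ms4a3 and Fcnb had no UMI in any neutrophil. Camp, Ngp and Ltf, proteins of the secondary granules that later precursors make, came from very few cells. In BrM 2, 2 cells held 444 of the 446 UMIs of these genes, in BrM 3 a single cell held 190 of 198, and in MFP 3 no cell held 10 or more of the 62.

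Several chemokine and interleukin-1 genes were high in neutrophils of every library that held them. Cxcl2, which draws further neutrophils, stood at 16070, 21670 and 24580 CPM and at 1824, 1578 and 2077 CPM in macrophages. Ccl3, which draws monocytes and T cells, stood at 2176, 3225 and 5937 CPM and at 972, 707 and 539 CPM in macrophages. Il1b, the main inflammasome product, stood at 12930, 15150 and 14090 CPM and at 3973, 3842 and 3345 CPM in macrophages. Thinned to 1000 UMIs, 95.2%, 94.4% and 94% of neutrophils had an Il1b UMI, against 7.35%, 8.99% and 8.24% of T cells. Of 15 listed chemokines, 7 stood above the macrophages of the same library in CPM in all 3 libraries (Ccl3, Ccl4, Ccl6, Cxcl1, Cxcl2, Cxcl3 and Cxcl10). Another 7 stood below (Ccl2, Ccl5, Ccl9, Cxcl9, Cxcl16, Pf4 and Ppbp). Ccl2, which draws monocytes, stood at 91.95, 129 and 48 CPM in neutrophils against 697.5, 634 and 420.2 CPM, and Ccl5, which draws T cells, at 160.1, 322 and 165 CPM against 437, 817 and 269 CPM. For Il1b the libraries lay close together, while Ccl3 was highest in MFP 3 without reaching the 2-fold mark over BrM 3. These orders hold for CPM, a share of all UMIs, and macrophages held more UMIs per cell. Their medians were 11760, 10790 and 14170 UMIs, against 1562, 1560 and 3038 in neutrophils. A UMI of Ccl3 was found in 49.3%, 61.4% and 75.15% of neutrophils and in 67.2%, 58.3% and 67.8% of macrophages. UMIs per cell were not compared.

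The site comparison asked how neutrophils of MFP 3 differed from those of both BrM libraries. A gene was called where its level in MFP 3 was at least 2-fold above, or at least 2-fold below, both BrM 2 and BrM 3, with 50 CPM or more in the higher site and 1 CPM added to every level, also in the folds given below. Of 2418 genes compared, 117 were called higher in MFP 3 (4.84%) and 33 lower (1.36%). BrM 2 and BrM 3 lay 2-fold apart, in either direction, for 173 of them (7.15%). That mark is looser than a site call, as 1 pair is compared and no minimum level applies to the higher library. With 1 BrM library alone, 212 genes were called higher in MFP 3 and 165 lower against BrM 3, and 217 and 225 against BrM 2. The median log2 difference of all genes was -0.04. Scaling by TMM, a trimmed mean of the ratios between libraries, moved that median to 0.205 and the calls to 193 higher and 17 lower (91.9% of calls higher, against 78% with all UMIs as the total). Other settings raised the lower count: with each cell thinned to 1000 UMIs the calls were 144 higher and 77 lower, and 5 more settings gave 50 to 69 lower beside 120 to 131 higher. Differences below use all UMIs and are relative to a shift of this size.

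Of the gene lists, hypoxia and glycolysis stood out on the higher side. Of its 29 genes compared, 12 were higher in MFP 3 and 0 lower, beside 4.84% and 1.36% of all genes, with a median log2 difference of 1.025. AP-1 and heat shock genes had 4 of 19 higher (median 0.72) and genes induced by glucocorticoids 3 of 10 (median 0.65). On the lower side, 8 of 10 secondary granule genes were called (median -1.38), and none of the 13 genes induced by interferon-gamma was called, though all 13 lay below 0 (median -0.66), and 12 of 13 with TMM scaling.

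**Figure D2:**
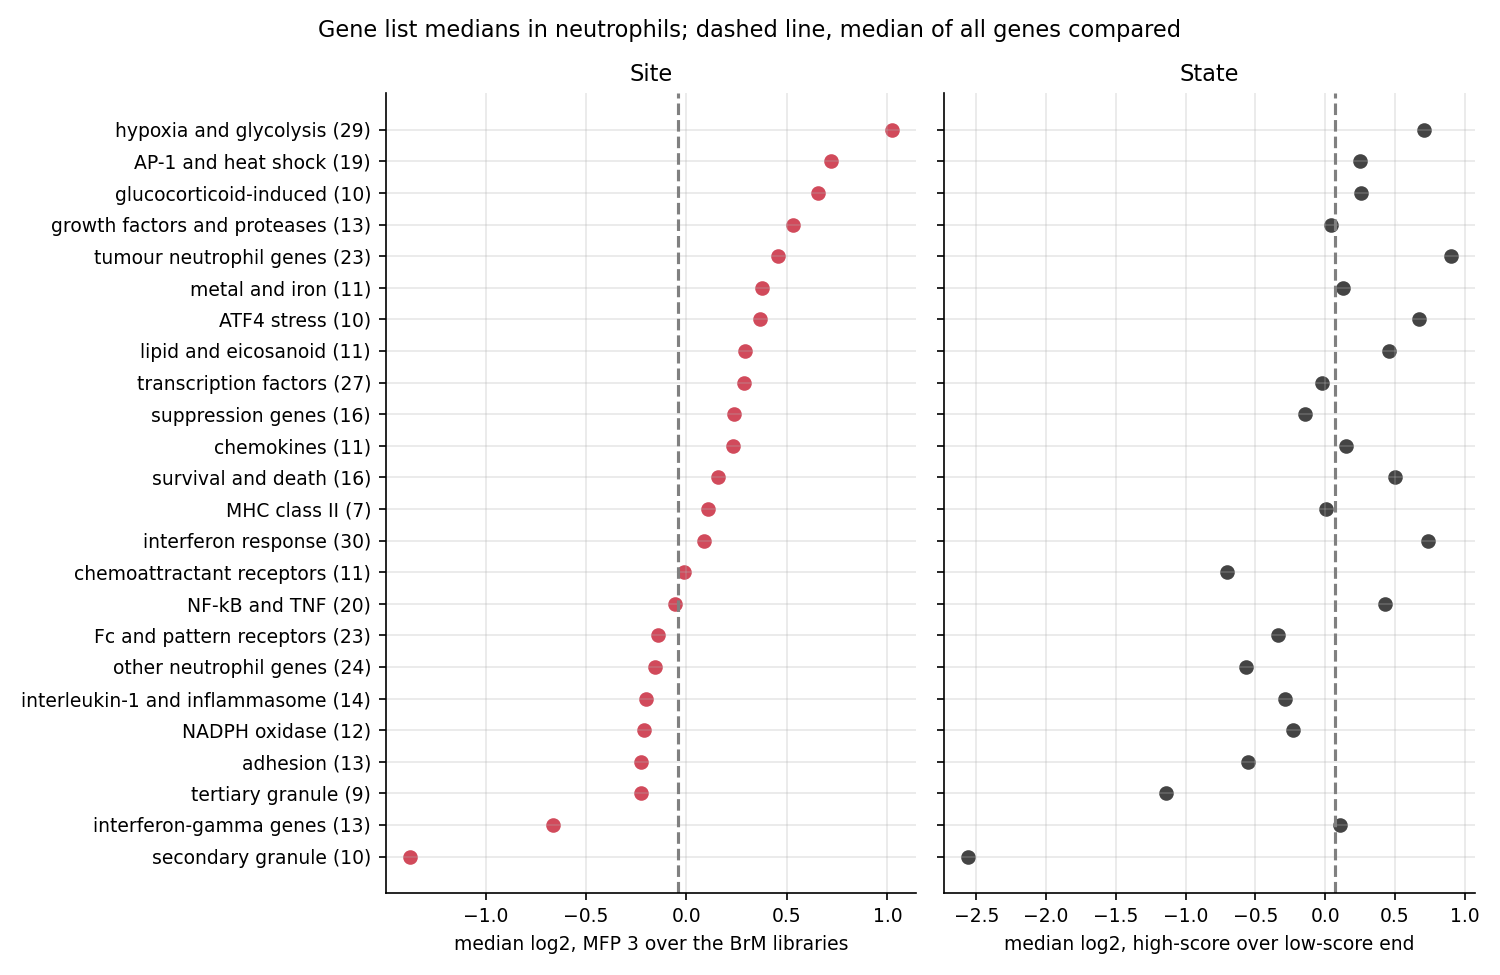
Median log2 difference of each gene list in neutrophils, on the left for MFP 3 over both BrM libraries and on the right for the high-score over the low-score end of the state score described below, whose ends are the lowest and the highest of 3 equal parts. The number of genes compared between the sites is in brackets and the dashed line is the median of all genes compared. Hypoxia and glycolysis genes have a median of 1.025 between the sites, and secondary granule genes lie lowest for both comparisons, at -1.38 and -2.56.

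Hilpda, which blocks fat breakdown and so lets lipid droplets grow under low oxygen, had 47, 28 and 5036 UMIs. These correspond to 160.1 CPM (exact 95% Poisson interval 118 to 213), 113 CPM (74.8 to 163) and 2258 CPM (2196 to 2322), or 14-fold and 19.9-fold higher in MFP 3. A UMI of Hilpda was found in 12 of 148, 9 of 145 and 338 of 656 neutrophils. Thinned to 1000 UMIs, 6.9%, 5.63% and 42.8% of neutrophils had one, against 17.15%, 11.3% and 14% of T cells. The BrM shares did not exceed those of T cells, while the MFP 3 share did. Hilpda stood at 102, 63.6 and 128 CPM in monocytes, 84.5, 76.6 and 125 CPM in macrophages and 233, 176 and 217.5 CPM in T cells, so MFP 3 did not stand 2-fold above both BrM libraries in these cells. T cells held more Hilpda than monocytes and macrophages in each library, so their share is no measure of free RNA, which was not measured.

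Genes of oxygen sensing and of the hypoxia response were higher in MFP 3 as well. Egln3, a prolyl hydroxylase that marks hypoxia-inducible factor for breakdown, stood at 40.9, 121 and 265 CPM. Ero1l, which drives disulfide formation in the endoplasmic reticulum, stood at 102, 225 and 706 CPM, 6.85-fold and 3.125-fold higher in MFP 3. Bnip3, a receptor for the clearance of mitochondria, stood at 98.8, 109 and 373 CPM, and the mitochondrial protein Higd1a at 88.5, 96.5 and 251 CPM. For these genes MFP 3 lay above both BrM libraries, and for Egln3 and Ero1l the BrM libraries also lay apart. P4ha1, a collagen prolyl hydroxylase, stood at 71.5, 52.3 and 220.2 CPM, and Ddit4, an inhibitor of growth signalling, at 34.05, 40.2 and 91.5 CPM. Hif1a itself, the regulated subunit of the factor, stood at 146, 173 and 302 CPM and was not called.

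Glycolysis was covered from glucose uptake to lactate. Slc2a1, the main glucose transporter, stood at 252, 241 and 525 CPM. Pfkl, a phosphofructokinase, stood at 30.65, 32.2 and 99.1 CPM, and Pfkfb3, which makes the activator of that enzyme, at 98.8, 72.4 and 282 CPM. Ldha, which turns pyruvate into lactate, stood at 518, 519 and 1149 CPM, 2.22-fold and 2.21-fold higher. All of these were called, as were the enzymes of the middle steps Tpi1, at 204, 173 and 577 CPM, and Eno1, at 91.95, 76.4 and 247 CPM. Gapdh, at 678, 683.5 and 1246 CPM, Pgk1, at 269, 285.5 and 500 CPM, and Pgam1, at 351, 318 and 699 CPM, were highest in MFP 3 and did not reach 2-fold over both libraries. Of the genes compared only Pfkfb4, at 51.1, 64.3 and 40.4 CPM, had a mean difference below 0.

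**Figure D3:**
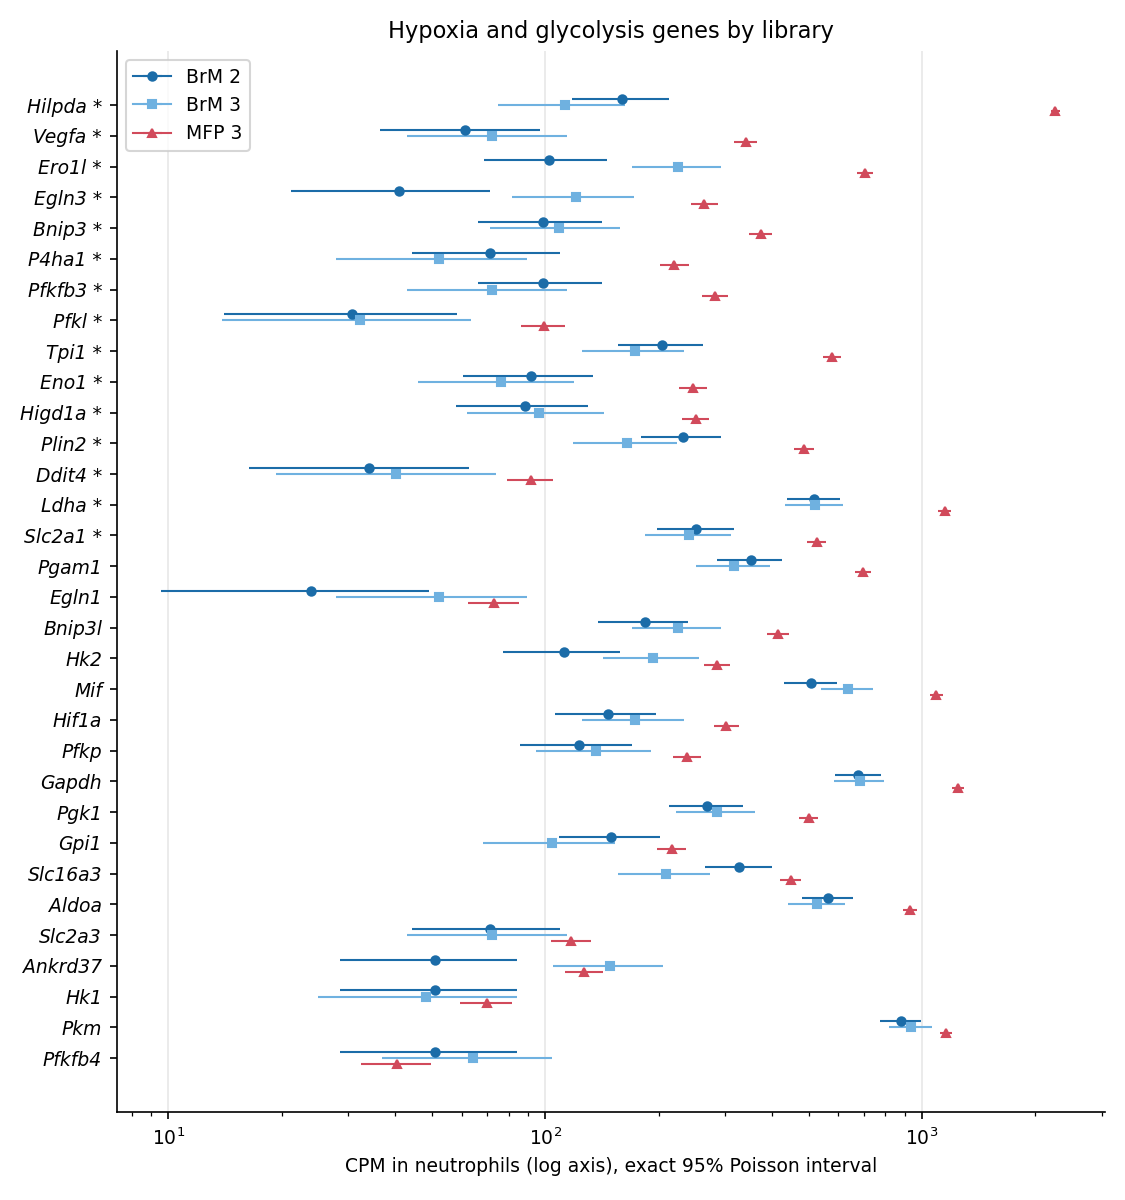
Levels of the hypoxia and glycolysis genes and of Hilpda, Vegfa and Plin2 in neutrophils (log scale, 1 point per library, bars for exact 95% Poisson intervals that cover counting error only, and a star for genes called higher in MFP 3). MFP 3 lies to the right of both BrM libraries for most genes, with Hilpda at 2258 CPM against 160.1 and 113 CPM, and to their left for Pfkfb4.

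The list was higher in single cells too. Per neutrophil thinned to 1000 UMIs, the median was 5, 5 and 11 UMIs of the list, and 18.6%, 23.9% and 55.8% of cells held 10 or more. Summed over its genes the list stood at 6235, 6614 and 12840 CPM in neutrophils. It stood at 5405, 5705 and 6610 CPM in monocytes, 5085, 5814 and 7650 CPM in macrophages and 5550, 5838 and 5532 CPM in T cells of the same libraries. By the same rule none of 21 list genes compared in monocytes, none of 22 in macrophages and none of 16 in T cells was called higher, where 1.51%, 1.845% and 0.48% of all genes compared in these cells were. The median log2 difference of the list genes was 0.33 in monocytes, 0.48 in macrophages and -0.035 in T cells. Over all genes compared in these cells it was 0.06, 0.03 and -0.009. The difference between the cell types was not tested.

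The promoters of Hilpda, Bnip3, P4ha1 and Ldha are shown because they belong to genes that were higher together in MFP 3 and hold the core letters bound by hypoxia-inducible factor. Each is the 250 bases before the RefSeq start of the gene (GRCm38.p6), at chr6:29272376-29272625 on the plus strand for Hilpda, chr7:138909507-138909756 on the minus strand for Bnip3, chr10:59323046-59323295 on the plus strand for P4ha1 and chr7:46845554-46845803 on the plus strand for Ldha. Where the table lists 2 starts, as for Hilpda and Ldha, the window with more matches was taken. Capitals mark ACGTG on either strand, with 1, 2, 1 and 5 matches, and letters read as CACGTG count on each strand.
Hilpda: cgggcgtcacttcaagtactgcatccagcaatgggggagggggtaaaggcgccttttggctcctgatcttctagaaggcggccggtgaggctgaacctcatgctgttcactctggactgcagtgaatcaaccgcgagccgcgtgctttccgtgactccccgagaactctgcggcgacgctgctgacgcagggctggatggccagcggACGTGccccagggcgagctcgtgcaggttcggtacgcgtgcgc
Bnip3: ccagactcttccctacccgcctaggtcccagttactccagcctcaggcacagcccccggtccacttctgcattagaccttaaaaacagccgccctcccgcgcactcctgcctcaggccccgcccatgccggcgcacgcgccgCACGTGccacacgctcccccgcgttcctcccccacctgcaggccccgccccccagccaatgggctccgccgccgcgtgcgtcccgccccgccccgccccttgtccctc
P4ha1: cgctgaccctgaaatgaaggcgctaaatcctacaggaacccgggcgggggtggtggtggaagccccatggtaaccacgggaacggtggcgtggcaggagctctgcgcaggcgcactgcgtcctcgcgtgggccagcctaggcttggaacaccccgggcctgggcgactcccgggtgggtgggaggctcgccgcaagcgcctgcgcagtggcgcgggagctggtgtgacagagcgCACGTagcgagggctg
Ldha: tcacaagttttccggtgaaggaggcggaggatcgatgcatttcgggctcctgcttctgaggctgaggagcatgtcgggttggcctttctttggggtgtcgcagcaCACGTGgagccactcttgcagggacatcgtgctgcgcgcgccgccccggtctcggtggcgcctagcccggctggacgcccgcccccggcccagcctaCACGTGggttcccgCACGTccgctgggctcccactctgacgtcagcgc

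ACGTG was found on either strand in the windows of 4998 of 27025 genes (18.5%), and of 558 of the 1928 compared genes that matched the table by symbol (28.9%). Of the genes called higher in MFP 3, 38 of the 98 matched held it (38.8%). Of the hypoxia and glycolysis list with Hilpda, Vegfa and Plin2, 18 of 29 matched genes that were compared held it (62.1%), and 9 of the 14 that were called higher (64.3%). Within the list the shares of called and of all compared genes were thus close. A match is a description of letters, and binding was not measured.

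Secreted factors of neutrophils differed in both directions. Of 13 growth factor and protease genes compared, 2 were called higher in MFP 3 and 2 lower (median 0.53), beside 4.84% and 1.36% of all genes. The genes named next, not all of this list, are ones that were higher. Vegfa, the main angiogenic factor, stood at 61.3, 72.4 and 341 CPM, 5.49-fold and 4.66-fold higher in MFP 3. A UMI of Vegfa was found in 13 of 148, 17 of 145 and 262 of 656 neutrophils. These cells were not thinned, and such shares rise with depth, which had medians of 1562, 1560 and 3038 UMIs. F10, coagulation factor X, stood at 40.9, 72.4 and 359 CPM, and in monocytes at 87.4, 167 and 142 CPM. Ptgs2, which starts prostaglandin synthesis, stood at 759, 913 and 1981 CPM, and Inhba, a subunit of activin, at 23.8, 52.3 and 179.8 CPM. For each of these MFP 3 lay above both BrM libraries.

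Of 16 genes linked to suppression of T cells, 3 were higher and 0 lower (median 0.24), beside 4.84% and 1.36% of all genes. Pdcd1lg2, a ligand of PD-1, stood at 13.6, 16.1 and 72.65 CPM, and Lgals9, a galectin, at 81.7, 84.4 and 205 CPM. Cd274, the other ligand of PD-1, stood at 459.7, 981 and 1163 CPM, with BrM 3 close to MFP 3, and was not called. Arginase, Arg1, stood at 3.405, 0 and 3.14 CPM, near the floor in each library. Of 11 lipid genes 3 were higher, beside the same 4.84%: Hilpda, Ptgs2 and Plin2, a coat protein of lipid droplets, at 232, 165 and 487 CPM.

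Of 19 heat shock and immediate-early genes, which enzymatic dissociation is known to induce, 4 were called higher in MFP 3 and 0 lower, beside 4.84% and 1.36% of all genes. Fos stood at 518, 499 and 1520 CPM and Egr1 at 739, 1194 and 2693 CPM. The heat shock gene Hspa1a stood at 47.7, 100.5 and 465 CPM, with 194 of its 1037 UMIs in MFP 3 from 1 cell, and Hspa1b at 34.05, 32.2 and 274.5 CPM, with 110 of 612 from 1 cell. Junb, the most abundant of the list, stood at 3000, 3763 and 5985 CPM and was not called. In monocytes 4 of 19 genes of this list were called higher in MFP 3 too: Egr1, at 42.5, 68.4 and 139 CPM, Hspa1b, Fosb and Klf2. Fos stood at 908.5, 878.5 and 1670 CPM there and was not called. The part of dissociation in the other site differences was not tested.

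The remaining genes named by the size of their difference were mostly low in BrM. Ccdc126 had 3, 6 and 372 UMIs, a ratio of 5.54 to 79.5 over BrM 2 and of 3.15 to 19 over BrM 3 (exact 95% counting intervals). Gpsm1, a regulator of G protein signalling, had 1, 2 and 177 UMIs, with ratios of 4.13 to 926 and 2.69 to 82.1. Jmy, an actin nucleator, had 4, 2 and 177 UMIs, with ratios of 2.24 to 21.6 and 2.69 to 82.1. These intervals are wide because the BrM counts are small. Arfgef2, which activates small G proteins of the trans-Golgi, had 2, 0 and 166 UMIs, a ratio over BrM 2 of 2.98 to 91, and was at least 6.17-fold higher than in BrM 3, taken at 3 UMIs there. Fam71f2 had 2, 0 and 152 UMIs, a ratio over BrM 2 of 2.72 to 83.4, and was at least 5.65-fold higher than in BrM 3 by the same floor. No MFP 3 cell gave more than 15 UMIs of any of these genes.

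The largest difference by the ranking rested mostly on 1 cell. Retnla, a resistin-like protein of macrophages, had no UMI in BrM neutrophils and 454 in MFP 3, of which 304 came from 1 cell, and was at least 19.9-fold and 16.9-fold higher by the floor of 3 UMIs per library. In macrophages Retnla stood at 0, 0.0393 and 1811 CPM. Gzmb, a granzyme of killer lymphocytes, had 7, 3 and 337 UMIs, of which 269 came from 1 MFP 3 cell, and of the 654 MFP 3 UMIs of Gzma 342 came from 1 cell. The 8 NK cell markers summed to 225, 269 and 555 CPM. Of the 117 genes called higher, these 3 had most of their MFP 3 UMIs in 1 cell.

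Secondary granule genes were lower in MFP 3. Pglyrp1, which binds bacterial cell walls, stood at 361, 334 and 130.5 CPM, 2.75-fold and 2.545-fold higher in the BrM libraries. Hp, haptoglobin, stood at 657, 579 and 261 CPM, and Lyz2, lysozyme, at 2380, 1882 and 828 CPM. Anxa1, which limits inflammation, stood at 289.5, 269 and 116 CPM. In each of these MFP 3 lay below both BrM libraries. Camp, the cathelicidin, at 875, 378 and 2.69 CPM, Ngp, at 470, 269 and 0.897 CPM, and the iron binder Ltf, at 174, 149 and 24.2 CPM, rest in BrM on the few precursor-like cells given above. Without those cells, 4 of the 7 genes of the list that could still be compared were lower (median -1.16).

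Of 9 genes of gelatinase granules and secretory vesicles, 2 were lower and 0 higher (median -0.23), beside 1.36% and 4.84% of all genes, and the list summed to 3065, 2686 and 2952 CPM. The 2 called, both also in the mature panel described below, were proteases. Mmp8, collagenase, stood at 153, 137 and 19.7 CPM, and Mmp9, gelatinase, at 330.3, 342 and 157 CPM. Slpi, a protease inhibitor and the most abundant of the list, stood at 1396, 1258 and 1698 CPM and was not called. Without the few precursor-like cells, 1 of 9 genes of the list was called lower and 0 higher. Among neutrophils with a state score of 1 or above, a cut that itself uses Mmp8 and Mmp9, 0 of 8 were lower and 1 higher. Of 13 adhesion genes Itga4, an integrin chain, was lower, at 163.5, 145 and 50.7 CPM, and of 23 Fc and pattern receptors Clec5a, an activating lectin, at 436, 462 and 195.5 CPM. Retnlg is also among the 33, and as it chose the cells nothing is read from it. Stfa1, a cystatin, at 184, 64.3 and 5.83 CPM, Chil3, a chitinase-like protein, at 149.8, 129 and 25.1 CPM, and Saa3, an acute phase protein, at 126, 56.3 and 16.6 CPM, had most of their UMIs in at least 1 BrM library from a single cell. Of the 33 genes called lower, 6 were of this kind, these 3 with Camp, Ngp and Ltf.

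Csn3 and Igfbp5 were lower in MFP 3 in other cells as well. Csn3, a milk casein, stood at 208, 141 and 21.5 CPM in neutrophils, 46.5, 13.7 and 1.36 CPM in T cells and 104, 36.5 and 5.99 CPM in macrophages. Igfbp5, which binds insulin-like growth factors, stood at 81.7, 88.5 and 26 CPM in neutrophils and 32.55, 6.03 and 3.62 CPM in T cells. Thinned, 22.1%, 13.4% and 2.16% of neutrophils and 5.27%, 2.36% and 0.102% of T cells had a Csn3 UMI. For Csn3 both cell types show the same order of the libraries, at different shares, and the part of RNA free in the suspension was not tested.

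Interferon response genes varied between libraries of one site as well as between the sites. None of 30 compared was called in either direction (median 0.09), and their sum was 19140, 31850 and 26330 CPM, highest in BrM 3. Rsad2, an antiviral enzyme, stood at 1383, 2236 and 4071 CPM, Isg15, a ubiquitin-like modifier, at 2152, 3273 and 3929 CPM, and Ifit1, which binds viral RNA, at 1468, 2388 and 1910 CPM. In macrophages the sum was 6103, 6966 and 5479 CPM. Neutrophils of one library differed widely: per 1000 UMIs the 10th percentile was 2, 3 and 2 UMIs of the list, the median 10, 17 and 15, and 11.7%, 21.1% and 18.9% of cells held 50 or more.

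Genes induced by interferon-gamma summed to 4284, 8130 and 3557 CPM, highest in BrM 3. Gbp2, a guanylate-binding protein, stood at 586, 1371 and 565 CPM, and the transcription factor Irf1 at 817, 1624 and 495.5 CPM. The T cell attractant Cxcl10 stood at 1563, 5746 and 1828 CPM in neutrophils and at 1139, 2651 and 1096 CPM in monocytes. Cxcl9, of the same family, stood at 61.3, 494.5 and 48 CPM. Without BrM 3 the median of the list moved from -0.66 to -0.18, and without BrM 2 to -1.09.

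Receptors, oxidase and survival genes showed few calls. Of 11 chemoattractant receptors, 2 were higher, Cxcr1, at 13.6, 8.04 and 56.1 CPM, and Ccr2, at 27.2, 28.15 and 60.5 CPM, and 0 lower (median -0.01), beside 4.84% and 1.36% of all genes. Ccr2, which also drew the comparison monocytes, stood at 597.5, 626 and 1080 CPM in them, and 4.73% of MFP 3 neutrophils had a UMI of it. With each cell thinned to 1000 UMIs 1 of 10 receptors was called higher, and with 40 or more S100a8 and S100a9 UMIs 0 of 10. Cxcr4, which holds neutrophils in the marrow, stood at 800.3, 1090 and 859.7 CPM. None of 12 genes of the NADPH oxidase and of antioxidant defence was called (median -0.21), nor of 14 interleukin-1 and inflammasome genes (median -0.2) or of 16 survival and death genes (median 0.16). Mcl1, on which neutrophil survival depends, stood at 3399, 4033 and 4196 CPM.

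The second comparison ordered the neutrophils within each library by their balance of mature and tumour-associated transcripts. A state score was the log2 ratio of UMIs of 12 tumour-associated genes (Ccl3, Ccl4, Vegfa, Cd274, Ccrl2, Hilpda, Cxcr4, Icam1, Siglecf, Tnfrsf23, Gadd45b, Cstb) to those of 10 mature genes (among them Mmp8, Mmp9, Ly6g, Cd177, Ifitm6, Padi4, Mmp25, Lcn2, Wfdc21), 1 added to each, in cells with 4 or more panel UMIs. The median score was 3.04, 3.7 and 4.915, and 78.5, 90.3 and 94.5% of the 144, 145 and 654 scored cells reached 1 or above, that is 2-fold more tumour-associated than mature UMIs. The score uses raw UMIs and can move with depth, which was higher in MFP 3, so its medians are not compared between libraries. A score of -1 or below was reached by 8, 3 and 8 cells. As these were so few, the lowest and the highest of 3 equal parts of each library were compared, of 48, 48 and 218 cells each, and are called the low-score and the high-score end. The low-score end is low only relative to the rest of its library, as 17 of 48, 34 of 48 and 182 of 218 of its cells also scored 1 or above. With the cuts first planned, at 1 and -1, the calls described below were 339 and 76 in place of 50 and 53. The score is a range, not a pair of cell types: the low-score end reached up to scores of 1.81, 3 and 3.91, and 26, 33 and 112 cells lay within 0.25 of a boundary.

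**Figure D4:**
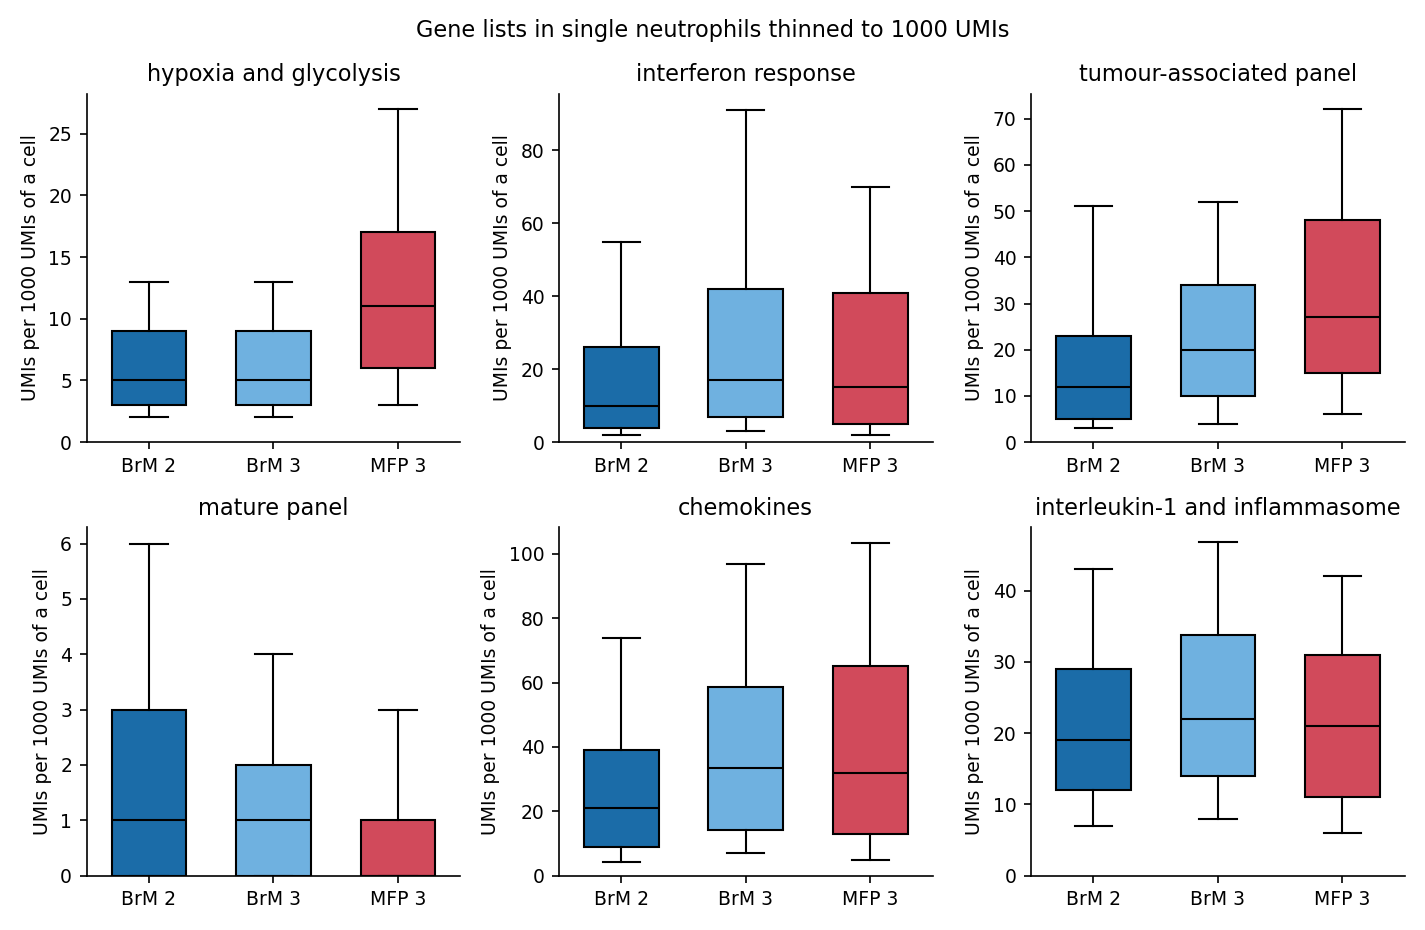
UMIs of gene lists per neutrophil thinned to 1000 UMIs (line, median; box, middle 50% of cells; whiskers, 10th to 90th percentile) in BrM 2, BrM 3 and MFP 3, with 145, 142 and 647 cells. Hypoxia and glycolysis UMIs have medians of 5, 5 and 11, and interferon response UMIs of 10, 17 and 15.

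The panels set the score and are given as a description. The tumour-associated panel summed to 17830, 24780 and 34320 CPM and the mature panel to 2234, 1918 and 1044 CPM. Gadd45b, a stress gene of the former, stood at 1461, 2211 and 4666 CPM. MFP 3 was highest on the tumour-associated panel and lowest on the mature panel, with BrM 3 between. Per 1000 UMIs the median neutrophil held 12, 20 and 27 UMIs of the tumour-associated panel. Thinned to 1000 UMIs, 37.9%, 40.85% and 50.4% of neutrophils held no UMI of the mature panel.

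Outside the panels, 1907 genes were compared between the ends. A gene was called where one end was at least 2-fold above the other in each of the 3 libraries, at 50 CPM or more in the higher end. By this measure 50 genes were higher at the high-score end (2.62%) and 53 at the low-score end (2.78%), as a description of cells cut from the same counts. The 53 include S100a8, S100a9 and Retnlg, which chose the cells and from which nothing is read. Leaving S100a8 and S100a9 out of the total moved the median log2 difference of all genes from 0.07 to -0.09 and the calls to 42 and 68. The median depth was 1553, 1463 and 2914 UMIs at the low-score and 1609, 1682 and 3348 UMIs at the high-score end.

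Few of the listed cytokine genes were called between the ends. Of 6 chemokines compared outside the panels 1 was higher at the high-score end, Cxcl2, of 19 NF-kB and TNF genes 1, Tnf, and of 11 interleukin-1 and inflammasome genes 1, Il1a, beside 2.62% of all genes. At the low-score end Il18rap, a chain of the interleukin-18 receptor, was called, and the interleukin-1 list had a median of -0.28. Tnf stood at 422.5 and 2331 CPM, 525 and 2343 CPM, and 414.5 and 1489 CPM in the low-score and the high-score end of BrM 2, BrM 3 and MFP 3. Cxcl2 stood at 9532 and 22410 CPM, 13180 and 32080 CPM, and 14770 and 35680 CPM, 2.35-fold, 2.43-fold and 2.415-fold higher. Il1a, an interleukin-1 released on cell damage, stood at 435 and 1047 CPM, 489 and 1554 CPM, and 516 and 1265 CPM. Il1b stood at 11200 and 13190 CPM, 12990 and 16120 CPM, and 14900 and 12860 CPM, and its direction differed between the libraries.

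Of 13 subunits of the proton pump that acidifies lysosomes that were compared, 4 were higher at the high-score end and 0 lower, beside 2.62% and 2.78% of all genes, and 11 had a mean difference above 0. These subunits were picked out and counted after values of some of them were seen. Atp6v1c1 was 4.24-fold, 3.835-fold and 4.04-fold higher, Atp6v1h 3.095-fold, 3.16-fold and 2.52-fold and Tcirg1 2.61-fold, 5.99-fold and 3.18-fold. Atp6v0c stood at 1827 and 3655 CPM, 2374 and 5221 CPM, and 2153 and 4374 CPM. The other 9, for instance Atp6v1g1, at 808 and 761 CPM, 716 and 624 CPM, and 643 and 719 CPM, were not called. The tetraspanin Cd63, of late endosomes, stood at 298 and 1314 CPM, 417.5 and 1274 CPM, and 482 and 1108 CPM. Nceh1, a hydrolase of cholesterol esters, stood at 12.4 and 118.5 CPM, 11.9 and 50.9 CPM, and 46.5 and 296 CPM, and Fnip2, a partner of folliculin in nutrient sensing, at 0 and 69.15 CPM, 11.9 and 140.1 CPM, and 74.7 and 442 CPM. Slc31a2, a copper transporter, stood at 12.4 and 158 CPM, 95.4 and 306 CPM, and 73.3 and 466 CPM.

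Other genes named by size were scarce at the low-score end. Creb5, a transcription factor, stood at 0 and 188 CPM, 35.8 and 331 CPM, and 52.2 and 228 CPM. Plau, the urokinase that activates plasmin, had no UMI at the low-score end of either BrM library and stood at 69.15, 102 and 78.5 CPM at the high-score end. Osbpl8, a lipid carrier, stood at 24.9 and 178 CPM, 11.9 and 50.9 CPM, and 71.9 and 289.9 CPM, and Frrs1, a ferric reductase, at 24.9 and 79 CPM, 0 and 102 CPM, and 31 and 87.35 CPM. The transcript 9930022D16Rik stood at 0, 0 and 2.82 CPM at the low-score end and at 59.3, 50.9 and 64.6 CPM at the high-score end. In BrM these rest on few molecules, for instance 6 UMIs of 9930022D16Rik and 7 of Plau at the high-score end of BrM 2.

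Genes described for tumour neutrophils but not in the panel were mostly on the same side. Of 23 compared, 5 were higher (Tnf, Cd63, Mif, Bri3 and Rgs1), 0 lower, beside 2.62% and 2.78% of all genes, and 22 had a mean difference above 0 (median 0.9, against 0.07 over all genes). Mif, a cytokine that acts on macrophages, stood at 249 and 849.6 CPM, 382 and 968 CPM, and 657 and 1637 CPM. All 30 interferon response genes compared had a mean difference above 0 (median 0.74), of which Ifit2 and Ifit3 were called, Ifit3 at 186 and 948 CPM, 656 and 1426 CPM, and 362 and 885 CPM. Of 26 hypoxia and glycolysis genes, Tpi1, P4ha1 and Mif were called (median 0.71). The survival genes Bcl2a1a and Bcl2a1b were called too, but are near-identical copies between which the counting may split reads.

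The low-score end held more of some granule proteins and of receptors for bacterial peptides. Pglyrp1 stood at 1044 and 29.6 CPM, 680 and 50.9 CPM, and 265 and 41.8 CPM, low-score end first. Hp stood at 1553 and 237 CPM, 1217 and 191 CPM, and 561 and 97.5 CPM, and Anxa1 at 770.5 and 69.15 CPM, 549 and 115 CPM, and 216 and 54.4 CPM. The formyl peptide receptor Fpr2 stood at 348 and 118.5 CPM, 239 and 115 CPM, and 209 and 78.5 CPM, and Fpr1 at 236 and 49.4 CPM, 131 and 63.7 CPM, and 142 and 57 CPM. Of 5 secondary granule genes compared, 4 were higher at the low-score end, beside 2.78% of all genes, and of 7 gelatinase granule genes outside the panel 0 (median -1.14).

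The other genes named at the low-score end had varied functions. Alox5ap, needed to make leukotrienes, stood at 1504 and 583 CPM, 1205 and 560.3 CPM, and 983 and 346 CPM. It was the only one called of 9 lipid genes, of which 6 had a mean difference on the other side (median 0.46). Dgat1, which makes triglycerides, stood at 112 and 29.6 CPM, 71.6 and 12.7 CPM, and 175 and 34.2 CPM. Gda, guanine deaminase, stood at 795 and 217 CPM, 453 and 76.4 CPM, and 443 and 116.5 CPM. These were higher in the 3 libraries, as were the adhesion molecule Jaml, at 199 and 49.4 CPM, 131 and 25.5 CPM, and 125.5 and 25.3 CPM, and Ccpg1, a receptor for clearing endoplasmic reticulum, at 286 and 59.3 CPM, 262 and 38.2 CPM, and 190.3 and 40.5 CPM. Fam129a stood at 162 and 19.8 CPM, 107 and 12.7 CPM, and 83.2 and 15.2 CPM. Cd244a, a receptor of the SLAM family, stood at 112 and 29.6 CPM, 131 and 25.5 CPM, and 131 and 20.25 CPM. Ppp1r3d, which targets a phosphatase to glycogen, stood at 137 and 29.6 CPM, 143 and 38.2 CPM, and 87.4 and 17.7 CPM. In BrM several of these rest on few molecules. Fam129a had 13 and 2 UMIs in BrM 2 and 9 and 1 in BrM 3, Cd244a 9 and 3, and 11 and 2, and Ppp1r3d 11 and 3, and 12 and 3. With the cuts first planned, at 1 and -1, Jaml, Cd244a and Ppp1r3d reversed.

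**Figure D5:**
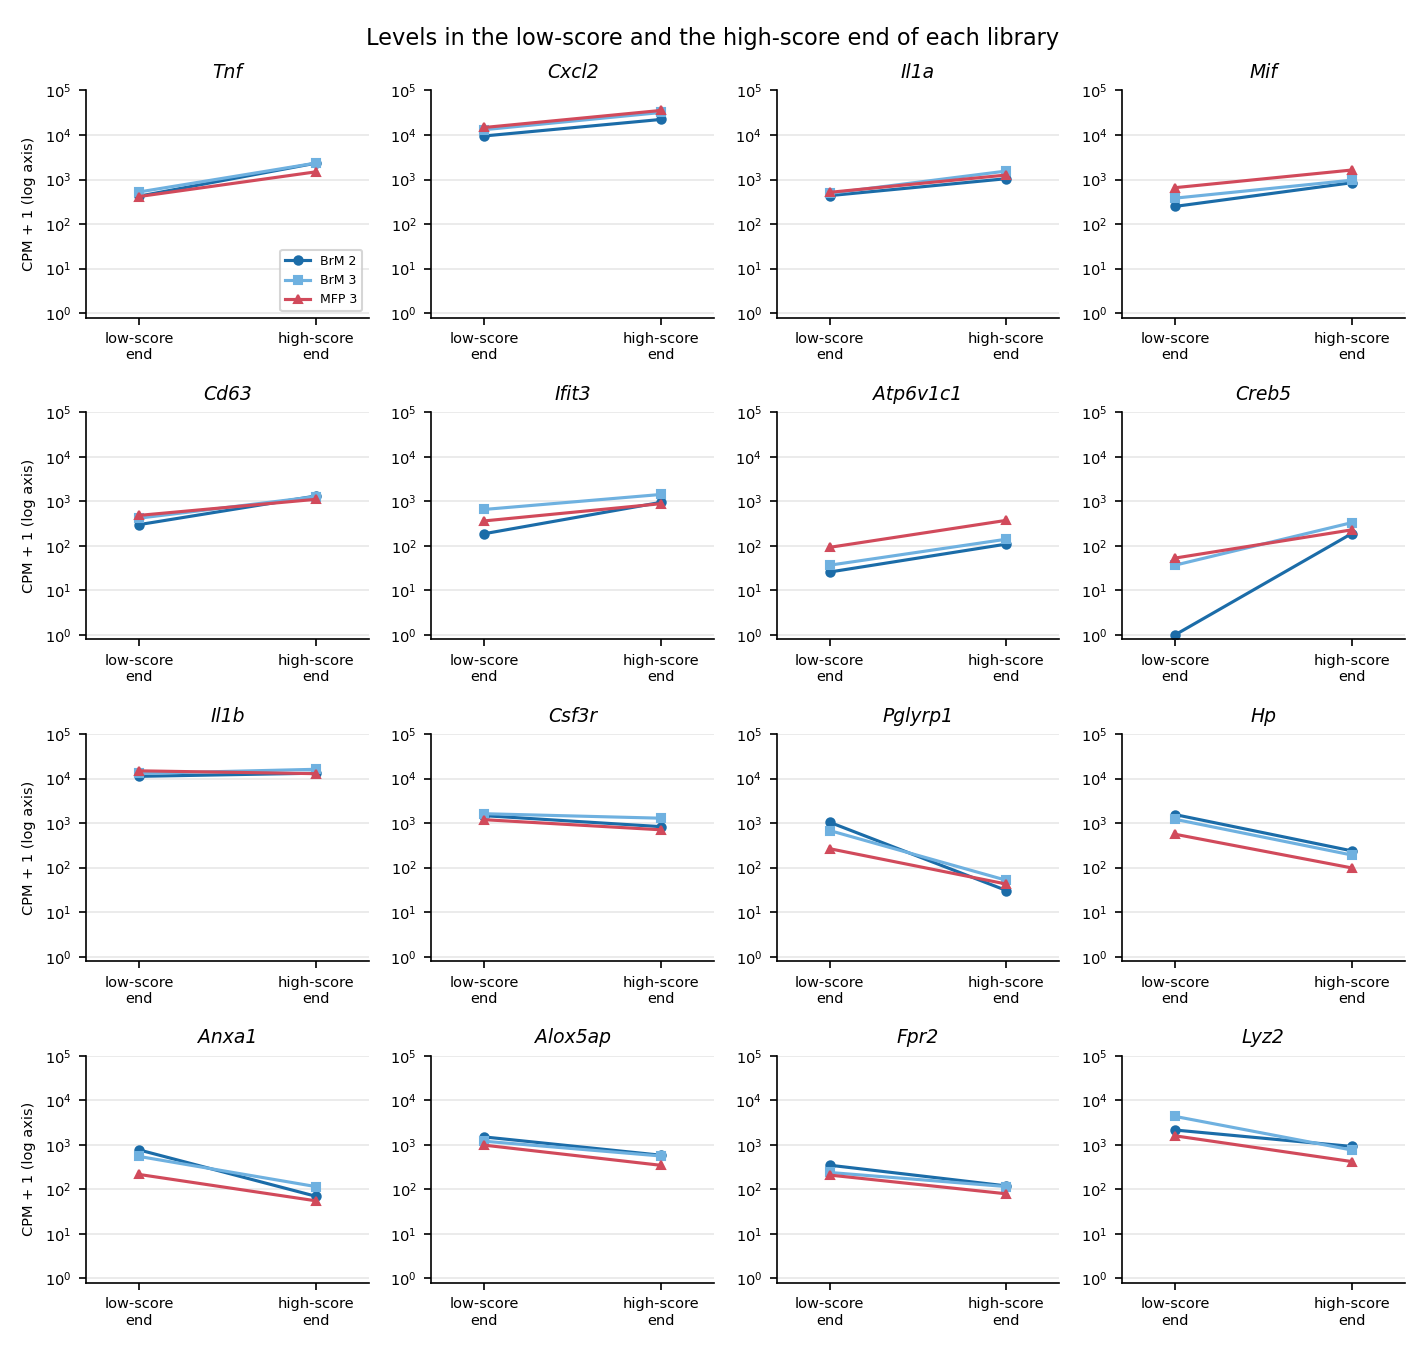
Levels of genes in the low-score and the high-score end of the state score in BrM 2, BrM 3 and MFP 3 (CPM + 1 on a log axis, 1 line per library, 48, 48 and 218 cells per end). Tnf and Cxcl2 are higher at the high-score end in the 3 libraries and Pglyrp1 and Hp higher at the low-score end, while the lines of Il1b do not share a direction.

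The site difference was read again among neutrophils with a score of 1 or above (113, 131 and 618 cells). That cut kept 78.5%, 90.3% and 94.5% of the scored cells, so it cannot show whether a difference depends on the score. Of hypoxia and glycolysis genes 12 of 28 were higher in MFP 3 and 0 lower, with a median of 1 against 1.025 over all neutrophils. Of secondary granule genes 1 of 7 was lower (median -0.87). Across thinned neutrophils of 1 library, which share a library and a fixed depth, UMIs of the tumour-associated panel and of the interferon list had Spearman correlations of 0.23, 0.37 and 0.31 over 145, 142 and 647 cells. Those of the tumour-associated panel and of the hypoxia list without panel genes had 0.13, 0.1 and 0.32, highest in MFP 3, and the difference between the libraries was not tested. Those of the interferon list and of the hypoxia list without panel genes had 0.01, 0.08 and 0.02. The hypoxia list holds no panel gene, but the tumour-associated panel holds Hilpda and Vegfa, shown with the hypoxia genes above. The part of Hilpda and Vegfa in the correlations of the panel with the hypoxia list was not tested.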

How the data were processed

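The authors aligned the reads with Cell Ranger 4.0 to mm10, per the submitters' processing notes, and deposited unnormalised UMI counts as 1 matrix per library (10x 3' chemistry, per the labels' protocols, which name 2 sequencers and not which library ran on which). The annotation release is not given in the sources used here. Barcodes with 500 or more UMIs, 200 or more genes and at most 10% mitochondrial UMIs were kept, and doublets were not removed. Comparison cells were drawn by UMIs: T cells (2 or more Cd3e), macrophages (20 or more C1q) and monocytes (3 or more Ly6c2, with Ccr2 and Csf1r). In the libraries with neutrophils, Cd3e had no UMI in the macrophages and monocytes, and Cd79a had none in any comparison group. Levels of marker genes in the comparison cells are thus partly set by how these cells were drawn. Neutrophil UMIs were summed per library, with Python 3.11.15, NumPy 2.4.6 and SciPy 1.17.1. TMM came from edgeR 4.0.16 (R 4.3.3) and doublet scores from Scrublet in scanpy 1.11.5. No test was made, so the precision is that of the counts. The rule of the site call was tried on simulated counts summed per library, with no variation between cells. Changes were put only into genes with a mean of 200 CPM or more. The state call and genes that rest on 1 cell were not simulated.

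The members and gene lists were chosen with earlier results of these data known. Genes named are those of the lists and the 10 with the largest smallest fold in each direction, without ribosomal, mitochondrial, Gm-numbered and, for the state score, panel and rule genes. Of the listed genes, 6 did not match a symbol of the files. One gene of the mature panel is not reported here. The score was planned with ends at 1 and -1, and 3 equal parts are reported in its place, since 8, 3 and 8 cells lay at -1 or below.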

Additional observations from a re-analysis of the deposited data

How the results depend on the processing

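No paired analysis was possible because no result comes from a test: 1 MFP library held neutrophils, and the ends of the state score were cut from the counts of the cells compared, so they were set side by side within each library with no p-value. The number of neutrophils per library kept to within 1.5 times under every alternative rule tried. Hypoxia and glycolysis genes were called higher in MFP 3 for 10 to 15 genes and lower for 0 under the 13 settings tried for the gene lists beside those that leave out a library. Counts of all genes called moved more, and the cause was not tested. They were 193 higher and 17 lower in MFP 3 with TMM scaling, and 54 and 15 at a minimum of 200 CPM. With no minimum they were 1297 and 454, where most genes hold few UMIs. The genes lower in MFP 3 numbered 55 without the doublet-scored cells, 77 with every cell thinned, 50 at 40 or more S100a8 and S100a9 UMIs, and, in alternatives chosen after seeing the data, 60 as the mean of the cells' own CPM, 69 in neutrophils of 1000 to 4000 UMIs and 67 with 1.5% or more of UMIs from S100a8 and S100a9. Leaving out BrM 2 or BrM 3 gave 212 to 217 higher and 165 to 225 lower, as 1 library less must then be passed. Between scores of -1 and 1 (23, 11 and 28 cells) there were 265 and 279, and at -1 or below (8, 3 and 8 cells) 577 and 324.

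For the state score, genes higher at the high-score and the low-score end were 21 and 21 at 200 CPM and 146 and 174 with no minimum. Leaving out 1 library gave 87 to 162 and 108 to 126. With cuts at 1 and -1 and at 2 and -2, 339 and 444 genes were higher at the high-score end, and Jaml (0.75 and 2.61 on the log2 scale), Cd244a (5.99 and 5.74) and Ppp1r3d (0.46 and 1.04) reversed. Between the sites Ltf reversed without the precursor-like cells (3.485, fixed by that filter, which uses Ltf and leaves at most 2 and 8 BrM UMIs of its 3 genes) and at scores of 1 or above (3.5), and Ngp between -1 and 1 (4.69). At -1 or below Ccdc126 (-2.92), Gzmb (-2.92), F10 (-3.52) and Igfbp5 (5.37) reversed, on few cells. The depth of the BrM neutrophils limits genes under 10.2 and 12.1 CPM, the levels of 3 UMIs over all neutrophils of BrM 2 and BrM 3. The ends of the state score are shallower and their limit is higher. The low-score and the high-score end held 80466 and 101226 UMIs in BrM 2, and 83827 and 78523 in BrM 3. At the high-score end of BrM 3, 1 UMI of Fam129a already gave 12.7 CPM.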
